A study of Mus musculus with 6 samples.

Results

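Tnf and 9 genes of its receptors and of the NF-kappaB feedback system were followed in mouse skin wounds. The genes were taken by symbol: the ligand Tnf, the receptors Tnfrsf1a and Tnfrsf1b, the inhibitors Nfkbia and Tnfaip3, the subunits Nfkb1, Nfkb2 and Relb, and the adaptor and ligase genes Traf1 and Birc3. All 10 were on the array, with 13 probes on 32 spots, and every probe was well above background on all 6 arrays, so the filter on dim signal removed none. They are 10 of 16408 genes tested and 13 of 55681 distinct probes.

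RNA came from the wound site of male mice of the strain labelled C57/BL6, 3 days after injury. The groups were 3 wild-type (WT) animals and 3 animals labelled FoxO1 +/-, heterozygotes that by this notation keep 1 intact copy of Foxo1, a forkhead transcription factor. Each animal had 4 full-thickness wounds on the back, made with a 4 mm punch and collected with a 6 mm punch that also takes skin around the wound. Every animal was wounded, so these data hold no unwounded skin, and every level below is that of an injured site. The labels do not say how the allele was disrupted, how old the animals were, whether they were littermates or how many wounds went into an array. Each array was taken as 1 animal, from the numbering of the titles. A p-value here therefore reflects the scatter of these 6 arrays, part of which may be technical.

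Tumour necrosis factor, the product of Tnf, is released early in wounds, chiefly by macrophages, neutrophils and other leukocytes. It binds the receptor TNFR1 (Tnfrsf1a), found on most cells, and TNFR2 (Tnfrsf1b), found mainly on leukocytes and endothelium. TNFR1 sets off a kinase cascade that removes the inhibitor IkappaB-alpha (Nfkbia) from NF-kappaB dimers, which then enter the nucleus. Among the genes they switch on are the brakes of the same pathway, Nfkbia and Tnfaip3, whose product A20 edits ubiquitin on the receptor complex. Nfkb1, Nfkb2, Relb, Birc3 and Traf1 are targets as well, so the mRNA of these genes is widely used as a readout of NF-kappaB activity.

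The promoters of feedback genes were searched for NF-kappaB motifs. The sequences below are the 250 bases before a RefSeq start site (build GRCm38.p6), printed 5′ to 3′ on the strand of the gene. Capitals mark matches to the 10-base NF-kappaB (kappaB) consensus GGGRNNYYCC on either strand, including overlapping matches. In it R is A or G, Y is C or T and N is any base. The feedback genes Nfkbia, Tnfaip3 and Nfkb2 are shown because they hold a match, and Tnf because it is the ligand. The windows are chr12:55492648-55492897 (minus strand) for Nfkbia, chr10:19015411-19015660 (minus strand) for Tnfaip3, chr19:46304487-46304736 (plus strand) for Nfkb2 and chr17:35202008-35202257 (minus strand) for Tnf.
Nfkbia: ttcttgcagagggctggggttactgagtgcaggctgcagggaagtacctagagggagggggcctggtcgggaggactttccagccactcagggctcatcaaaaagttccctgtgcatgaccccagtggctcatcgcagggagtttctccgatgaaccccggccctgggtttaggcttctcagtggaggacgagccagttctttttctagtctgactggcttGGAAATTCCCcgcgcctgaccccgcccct
Tnfaip3: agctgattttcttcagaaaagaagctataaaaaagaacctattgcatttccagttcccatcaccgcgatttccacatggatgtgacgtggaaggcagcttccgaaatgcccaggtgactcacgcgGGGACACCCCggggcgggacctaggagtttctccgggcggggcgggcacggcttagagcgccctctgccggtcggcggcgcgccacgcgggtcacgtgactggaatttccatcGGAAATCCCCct
Nfkb2: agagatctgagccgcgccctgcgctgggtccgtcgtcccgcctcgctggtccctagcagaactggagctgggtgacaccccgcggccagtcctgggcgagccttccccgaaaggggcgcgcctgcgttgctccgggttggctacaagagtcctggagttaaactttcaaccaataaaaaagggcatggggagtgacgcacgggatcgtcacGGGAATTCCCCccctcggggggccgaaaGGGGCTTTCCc
Tnf: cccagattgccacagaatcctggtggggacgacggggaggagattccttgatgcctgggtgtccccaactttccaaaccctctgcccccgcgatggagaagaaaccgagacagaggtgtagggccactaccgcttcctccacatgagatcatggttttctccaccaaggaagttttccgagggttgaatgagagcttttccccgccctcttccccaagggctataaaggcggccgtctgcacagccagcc
In Nfkbia the match ran from 29 to 20 bases before the start. In Tnfaip3 there was a match from 125 to 116 bases before the start and another from 12 to 3 bases before it. In Nfkb2 overlapping matches covered 39 to 29 bases before the start, and a further match lay 11 to 2 bases before it. Windows of other start sites of these genes are not printed. In Nfkb2 these were chr19:46305445-46305694 and chr19:46305680-46305929, with matches 236 to 227 and 225 to 216 bases before their starts. The other Tnfaip3 window, chr10:19011964-19012213, had no match. Of the 10 genes 8 had a window in the table, and 3 of these 8 had a match in at least 1 window, against 8.23% of 27025 genes in all. Of the 11 windows of these genes 5 had a match, against 7.25% of 32851 windows in all. Nfkb2 had the most windows, each with a match, and the unprinted ones overlap in sequence. The genes were picked as members of the NF-kappaB feedback system, so these shares are no test. Nfkb1 and Relb had no window, and the other 5 genes, Tnf among them, had no match. A match, or the lack of one, is a description of letters in these windows. Sequence farther from a start site and looser forms of the motif were not searched. Whether NF-kappaB acts on Tnf or another of these genes therefore cannot be read from them.

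Foxo1 itself was lower on all 3 FoxO1 +/- arrays. The level of its brighter probe was 2.04, 1.81 and 2.32 in WT replicates 1 to 3 and 1.55, 1.69 and 1.49 in FoxO1 +/- replicates 1 to 3, in log2 units relative to the 75th percentile of the array's signal, the scale of all levels below. A second Foxo1 probe was at 1.31, 1.04 and 1.51 in WT and 0.38, 0.50 and 0.30 in FoxO1 +/- wounds. The differences were -0.48 (SE 0.15) and -0.89 (SE 0.14), with limma p-values adjusted over probes of 0.548 and 0.187. Whether the disruption of the allele reaches the sequence of either probe is unknown here, so they check the labels only in part. The 75th percentile itself was 900 signal units on FoxO1 +/- replicate 3 and 1094 to 1302 on the other 5 arrays, and that array had 64.3% of its spots well above background against 70.1% to 71.9% elsewhere. All 6 arrays were on 1 slide. FoxO1 +/- replicates 2 and 3 were in its row 2, and the other 4 arrays in row 1. Keratinocyte and fibroblast markers (10 of 10 each) were well above background on every array.

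Across the 10 genes the mean was higher in FoxO1 +/- wounds for all 10, with log2 differences of 0.04 to 0.65, and no gene passed an adjusted p of 0.05 in limma. Over all 16408 genes 0.00609% passed, which is 1 gene, and 53.9% had a difference above 0. At an unadjusted p under 0.05, 2 of the 10 were higher, Tnfaip3 and Traf1, and 0 were lower, where 3.48% of all genes were higher and 2.81% lower. The FoxO1 +/- arrays lay entirely above the WT arrays for the same 2 genes, where 7% of all genes did so and 4.55% lay entirely below. The median of the 10 differences was 0.17, against 0.01 over all genes tested. The 10 genes share wounds and respond to common signals, so they are not independent measurements. They were also chosen with earlier results of these data known, so the shares over all genes are a description and no test. With single arrays left out the median ran from 0.12 without FoxO1 +/- replicate 1 to 0.33 without WT replicate 2. It was also below 0.17 without WT replicate 1 (0.13) and without WT replicate 3 (0.12). Within slide row 1, where FoxO1 +/- replicate 1 alone stood against the WT arrays, it was 0.31. In bulk tissue, fewer cells that make an mRNA and less mRNA per cell cannot be told apart.

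Tnf, the ligand, was measured by 10 spots of 1 probe on each array. The processed signal of these spots averaged 2824, 5697 and 3016 on WT replicates 1, 2 and 3 and 4743, 5325 and 4691 on FoxO1 +/- replicates 1, 2 and 3. As levels these gave 1.27, 2.31 and 1.21 in the WT wounds, and 2.12, 2.25 and 2.38 in the FoxO1 +/- wounds. WT replicates 1 and 3 were therefore low, and WT replicate 2 lay inside the range of the FoxO1 +/- arrays, so the groups overlapped. The spots of an array scattered little, with a coefficient of variation of 3.89% to 6.53%. The brightest spot on WT replicate 1, at 1.37, was below the dimmest on WT replicate 2, at 2.23. Spots of an array share RNA, labelling and hybridisation, so their scatter leaves out variation from those steps.

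**Figure D1:**
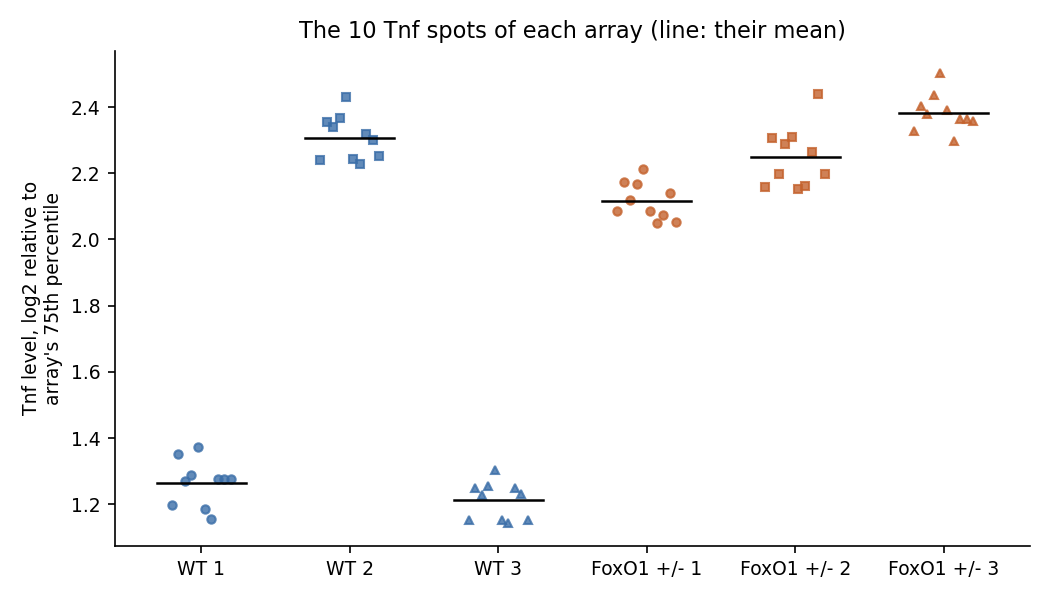
The 10 Tnf spots of each array are plotted as log2 level relative to the array's 75th percentile, blue for WT and orange for FoxO1 +/-, with a line at the mean of the spots. WT replicates 1 and 3 lie between 1.14 and 1.37, and all spots of the other 4 arrays lie between 2.05 and 2.50.

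The mean Tnf level was 1.60 ± 0.62 (SD, n = 3) for the WT group, against 2.25 ± 0.13 (SD, n = 3) for FoxO1 +/-. The log2 difference was 0.65 (SE 0.30, 95% interval -0.08 to 1.39), or 1.57-fold, with a limma adjusted p of 0.823 over all genes. Its exact two-sided permutation p was 0.3, where 3 arrays against 3 cannot give less than 0.1. The estimate depended on WT replicate 2: without it the difference was 1.01 (limma adjusted p 0.0667), against 0.49 without WT replicate 1 and 0.46 without WT replicate 3. Over all 6 arrays Tnf ranged 2.25-fold, a wider range than that of 91.4% of genes tested.

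The receptors differed in how much they varied. Tnfrsf1a, the signalling receptor of most cells, read 4.68, 4.80 and 4.73 in WT wounds and 4.73, 4.84 and 4.76 in FoxO1 +/- wounds, with 10 spots per array. It was the steadiest of the 10, with a 1.12-fold range over all arrays, and only 9.53% of genes tested had a narrower range. The log2 difference was 0.04 (SE 0.07, 95% interval -0.13 to 0.22, limma adjusted p 0.987), so a change beyond 1.17-fold upward or to under 0.913 of the WT level lay outside the interval. Its sign turned with quantile normalization (-0.01). A second, dimmer Tnfrsf1a probe moved the same way from array to array, within 0.045 log2 units after centring, and differed by 0.07 (SE 0.08). Tnfrsf1b, the receptor of leukocytes and endothelium, read 1.51, 2.005 and 1.66 in WT and 2.004, 1.73 and 1.85 in FoxO1 +/- wounds. The groups overlapped, and the difference was 0.14 (SE 0.15, 95% interval -0.22 to 0.49, limma adjusted p 0.955). Without WT replicate 1 it was 0.03 and without WT replicate 2 it was 0.28.

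Of the inhibitor genes, Tnfaip3 was higher on every FoxO1 +/- array than on any WT array, and Nfkbia was not. Nfkbia read 5.83, 6.94 and 6.29 on WT replicates 1 to 3 and 6.84, 6.66 and 6.79 on FoxO1 +/- replicates 1 to 3. WT replicate 1 was lowest and WT replicate 2 highest of all 6, so the WT arrays enclosed the FoxO1 +/- arrays. The log2 difference was 0.41 (SE 0.27, 95% interval -0.25 to 1.07, limma adjusted p 0.897). It was 0.15 without WT replicate 1 and 0.70 without WT replicate 2, and 0.26 with quantile normalization. The processed signal of Nfkbia ran from 66680 to 141300, and no spot was saturated.

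Tnfaip3, which encodes A20, read 1.81, 2.54 and 2.12 in WT and 2.84, 2.62 and 2.76 in FoxO1 +/- wounds. All 3 FoxO1 +/- arrays were above all 3 WT arrays, though FoxO1 +/- replicate 2 exceeded WT replicate 2 by little. The means were 2.16 ± 0.37 (SD, n = 3) and 2.74 ± 0.11 (SD, n = 3), a log2 difference of 0.58 (SE 0.19, 95% interval 0.12 to 1.05), or 1.50-fold. The unadjusted limma p was 0.0215 and the adjusted p 0.699, and the exact two-sided permutation p was 0.1, the smallest that 3 against 3 allows. Leaving out single arrays gave 0.41 without WT replicate 1 to 0.78 without WT replicate 2, each with 3 FoxO1 +/- arrays in the fit. The unadjusted limma p then ran from 0.00179 without WT replicate 2 to 0.0643 without FoxO1 +/- replicate 1.

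**Figure D2:**
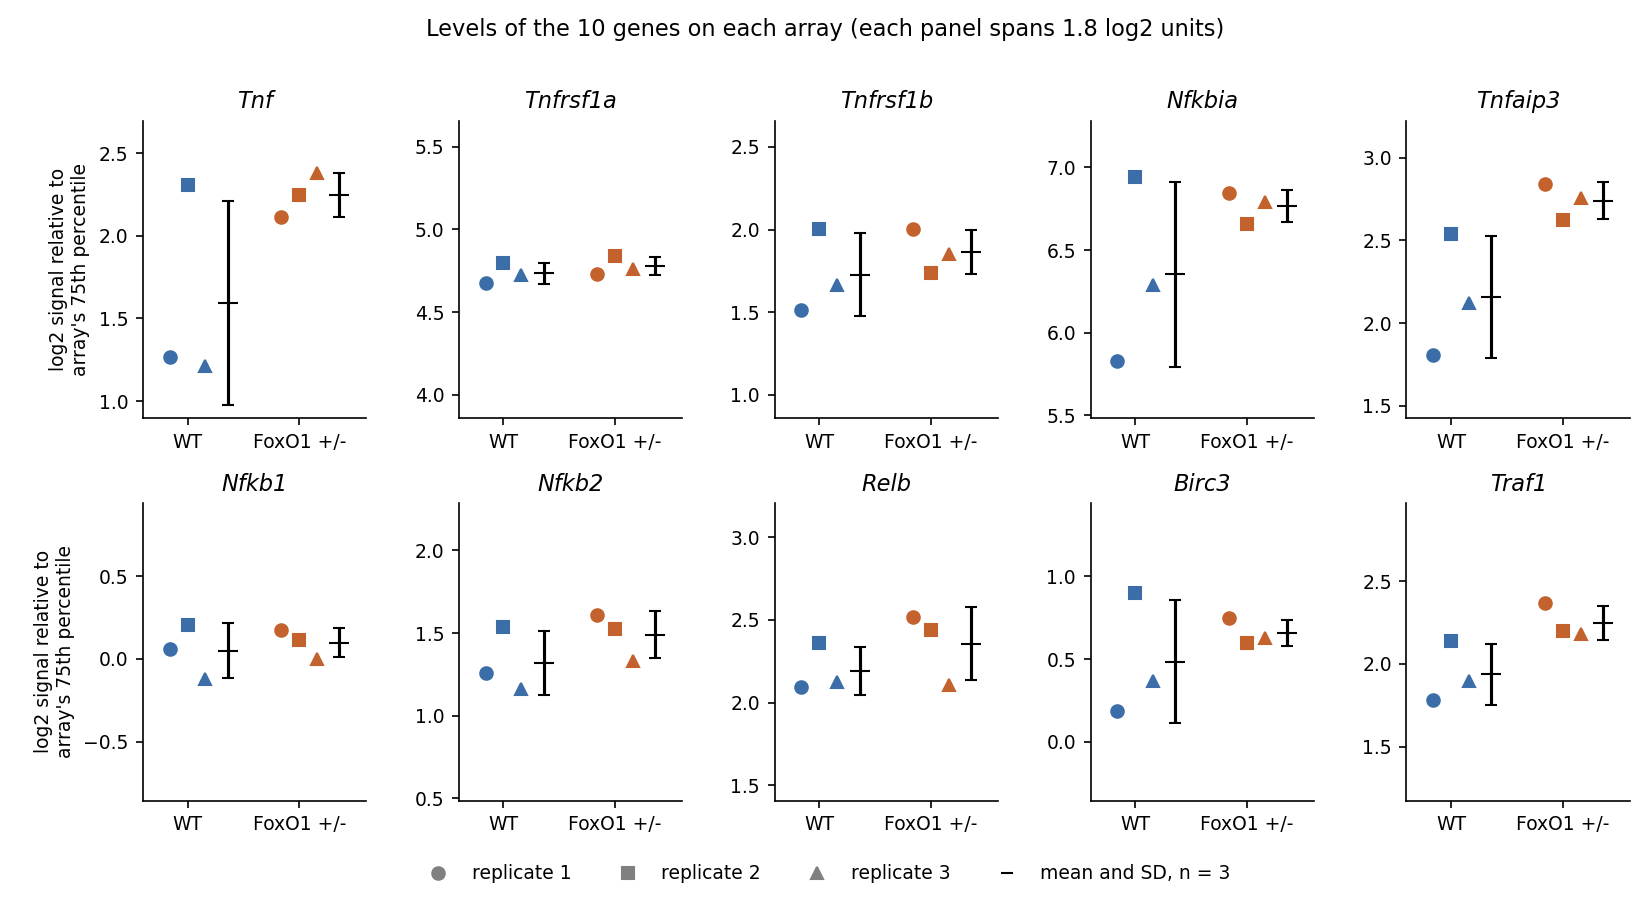
Each panel plots the log2 level of 1 gene on the 6 arrays, relative to the array's 75th percentile, with the mean and SD of each genotype (n = 3) as a bar. In every panel WT replicate 2 (blue square) is the highest WT array, and for Tnfaip3 and Traf1 the FoxO1 +/- points all lie above it.

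The NF-kappaB subunit genes differed by less. Nfkb1, which encodes p105 and p50 of the canonical dimers, read 0.06, 0.21 and -0.12 in WT and 0.18, 0.12 and 0.00 in FoxO1 +/- wounds, a difference of 0.05 (SE 0.11, 95% interval -0.21 to 0.31). Its sign turned without WT replicate 3 (-0.04). Its second probe, with levels of -0.29, -0.28 and -0.30 in WT and -0.21, -0.15 and -0.44 in FoxO1 +/- wounds, was the only pair of probes of 1 gene that parted by more than 0.1 log2 units after centring, by 0.17. Nfkb2, which encodes p100 and p52 of the non-canonical branch, read 1.26, 1.53 and 1.16 in WT and 1.61, 1.53 and 1.33 in FoxO1 +/- wounds. It differed by 0.17 (SE 0.13, 95% interval -0.14 to 0.48). Relb, the partner of p52, read 2.09, 2.36 and 2.13 in WT and 2.52, 2.44 and 2.10 in FoxO1 +/- wounds, a difference of 0.16 (SE 0.14, 95% interval -0.17 to 0.50). FoxO1 +/- replicate 3 was the lowest of its group for all 3 subunit genes, and without it Relb differed by 0.29. Without FoxO1 +/- replicate 1 Relb differed by 0.08, and Nfkb2 by 0.09 without WT replicate 3 and 0.28 without WT replicate 2. The limma adjusted p-values were 0.991, 0.908 and 0.926 for Nfkb1, Nfkb2 and Relb. A second Relb probe differed by 0.09 (SE 0.14) and kept within 0.067 log2 units of the first after centring.

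Birc3 encodes the ubiquitin ligase cIAP2 and Traf1 an adaptor that binds it, and both act at TNF family receptors. Birc3 read 0.19, 0.90 and 0.37 in WT and 0.75, 0.60 and 0.63 in FoxO1 +/- wounds. Like Nfkbia, its WT arrays enclosed the FoxO1 +/- arrays, and the difference of 0.17 (SE 0.19, 95% interval -0.28 to 0.63, limma adjusted p 0.956) became 0.02 without WT replicate 1 and 0.38 without WT replicate 2. Traf1 read 1.78, 2.14 and 1.89 in WT and 2.37, 2.20 and 2.18 in FoxO1 +/- wounds, with no overlap between the groups. Its nearest arrays were WT replicate 2 at 2.14 and FoxO1 +/- replicate 3 at 2.18. The difference was 0.31 (SE 0.12, 95% interval 0.03 to 0.59, limma adjusted p 0.781, unadjusted 0.0348), or 1.24-fold, and the exact two-sided permutation p was 0.1. Single arrays left out gave 0.23 to 0.41.

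**Figure D3:**
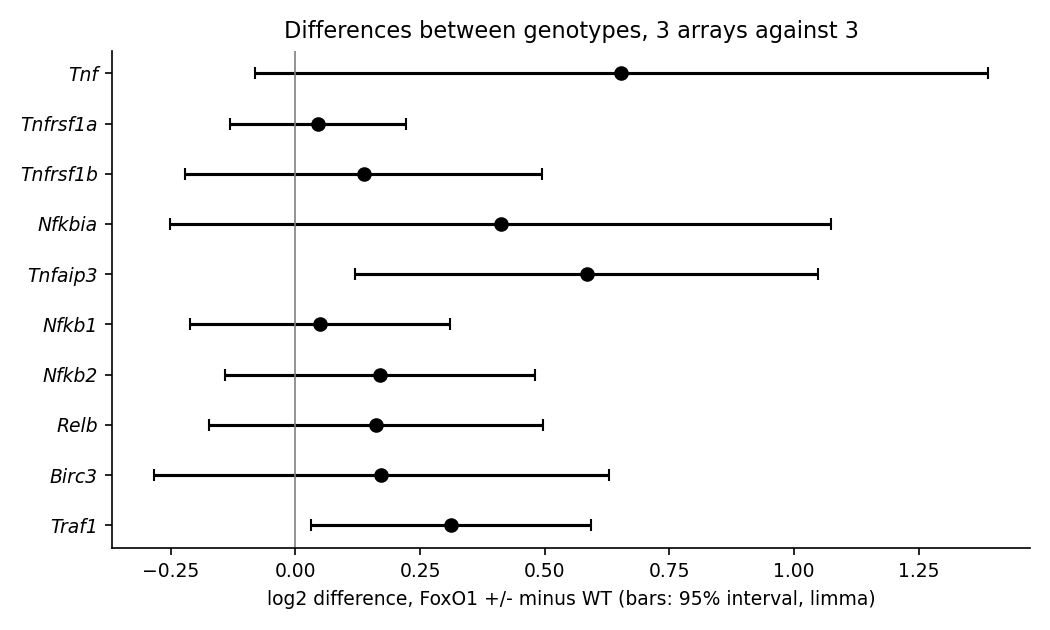
The log2 difference of each gene, FoxO1 +/- minus WT, is plotted with its 95% interval from limma. All 10 points lie above 0, from 0.04 for Tnfrsf1a to 0.65 for Tnf, and the intervals of Tnfaip3 and Traf1 alone exclude 0, before adjustment over genes.

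The low and high values of the 10 genes fell largely on the same arrays. WT replicate 1 was the lowest array for 7 of the 10 genes and WT replicate 3 for the other 3, and both were below the 6-array mean of every gene. WT replicate 2 was the highest for 4 genes and FoxO1 +/- replicate 1 for 4. The WT arrays scattered more than the FoxO1 +/- arrays for 9 of the 10 genes, with a ratio of their SDs of 5.80 for Nfkbia, 4.65 for Tnf, 4.62 for Birc3 and 3.28 for Tnfaip3, and 0.652 for Relb. Each SD rests on 3 arrays, and the ratios were not tested. Tnf levels fell into separate clusters, WT replicates 1 and 3 against the other 4 arrays. Correlations over the 6 arrays between Tnf and the rest of the 10 genes are therefore not reported. A relation inside the clusters was not tested. The r values given below for other pathway genes have the same limit and serve only to rank them.

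Marker lists of other cell types were read on the same arrays. The mean of 9 neutrophil markers (of 10 listed, Ly6g not among the genes tested) was 2.35, 3.37 and 2.88 on WT replicates 1 to 3 and 3.00, 3.12 and 3.24 on FoxO1 +/- replicates 1 to 3. It was lowest on WT replicate 1, next on WT replicate 3 and highest on WT replicate 2. Of the 10 genes only Nfkbia, Tnfrsf1b and Birc3 were so too. Among the FoxO1 +/- arrays their order differed from it. The neutrophil mean was lowest on replicate 1, where Nfkbia, Tnfrsf1b and Birc3 were highest of that group. Tnf rose from FoxO1 +/- replicate 1 to replicate 3, as the neutrophil mean did, but its lowest array was WT replicate 3 and its highest FoxO1 +/- replicate 3. All 9 were well above background on every array. The mean of 13 monocyte and macrophage markers (of 15 listed) ran from 4.44 to 4.53 in WT and from 4.47 to 4.68 in FoxO1 +/- wounds. Of these 13 markers, 10 had a higher and 3 a lower mean in FoxO1 +/- wounds, with a median difference of 0.11. Of the 9 neutrophil markers 7 were higher and 2 lower, with a median of 0.22. In each of these lists 1 marker was higher at an unadjusted limma p under 0.05. Adipocyte markers (8 of 8) had means of 1.46 to 2.54 in WT and 2.77 to 3.27 in FoxO1 +/- wounds, and sebaceous gland markers (7 of 8) of 0.84 to 1.69 and 0.11 to 0.56, without overlap for either list. T cell markers (8 of 8) were highest on WT replicate 3, at 0.39, against -0.59 to -0.16 on the other 5 arrays. Hair follicle markers (9 of 10, 5 of them well above background on every array) had a mean of 1.51 on WT replicate 1, the lowest array for 7 of the 10 genes, and of -3.24 to -2.26 on the other 5 arrays. Endothelial markers (9 of 9) had means of 1.49 to 1.66 in WT and 1.63 to 1.84 in FoxO1 +/- wounds. All 9 endothelial markers had a higher mean in FoxO1 +/- wounds, 3 of them at an unadjusted limma p under 0.05, with a median difference of 0.20. All 8 adipocyte markers were higher too, 4 of them at that p, with a median of 0.86. All 7 sebaceous gland markers were lower, 3 of them at that p, with a median of -1.08. Over all genes tested 53.9% had a difference above 0, and 3.48% were higher and 2.81% lower at that p. What part any of these cell types has in the levels of the 10 genes was not tested.

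**Figure D4:**
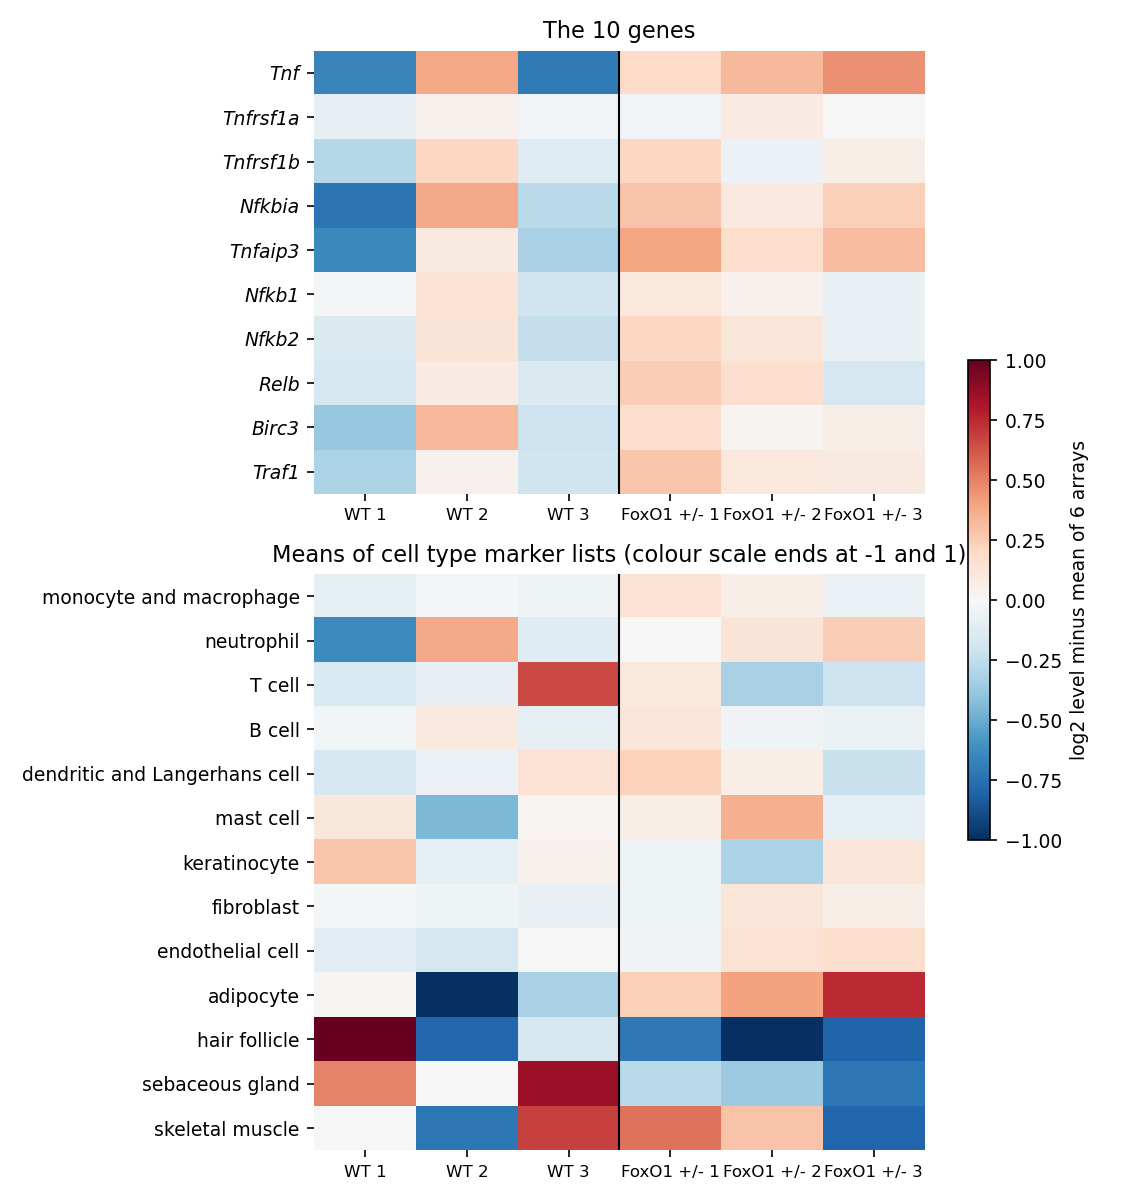
The heat maps give, for each array, the log2 level of the 10 genes (top) and the mean level of each marker list (bottom), minus the mean of the 6 arrays, blue for lower and red for higher. The 10 genes are low on WT replicates 1 and 3 and high on WT replicate 2, and the neutrophil markers are lowest on WT replicate 1 and highest on WT replicate 2.

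The rest of the pathway was read from 6 lists of 132 measured genes, of which 94 had a higher and 38 a lower mean in FoxO1 +/- wounds. No gene of these lists passed an adjusted p of 0.05 in limma. At an unadjusted p under 0.05, 10 were higher and 1 lower, against 3.48% and 2.81% of all genes tested, and 53.9% of all genes had a difference above 0. The median difference over the lists was 0.06, and 0.01 over all genes. These shares are the background for each list below, where counts of 1 to 3 genes are too few to set a list apart. The lists too were chosen with earlier results of these data known.

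Among 25 ligands and receptors of the TNF family, 2 were higher and 1 lower at an unadjusted p under 0.05, with a median of 0.07. Tnfrsf11b, which encodes the decoy receptor osteoprotegerin, read 1.00, 1.20 and 0.50 in WT and 0.14, 0.46 and -0.06 in FoxO1 +/- wounds, a difference of -0.72 (SE 0.22, limma adjusted p 0.650). This was the opposite direction to the 10 genes, and the groups did not overlap. Tnfsf15, the ligand TL1A, was dim, at -2.97, -2.86 and -2.94 in WT and -2.30, -2.82 and -2.37 in FoxO1 +/- wounds, a difference of 0.43 (SE 0.15, limma adjusted p 0.740). Lta and Ltb, the lymphotoxin genes on either side of Tnf in the genome, differed by -0.14 (SE 0.18) and 0.20 (SE 0.15). Lta was dim, at -4.89 to -4.30 in WT and -4.82 to -4.46 in FoxO1 +/- wounds.

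The 10 genes for shedding and decay of TNF had a median of 0.04, with 1 higher at an unadjusted p under 0.05. That gene was Rc3h1, whose product Roquin-1 promotes decay of Tnf mRNA, at 1.27, 1.20 and 1.30 in WT and 1.60, 1.45 and 1.47 in FoxO1 +/- wounds (difference 0.25, SE 0.08, limma adjusted p 0.650). With the mean of its 2 probes the difference was 0.13 and no longer under an unadjusted p of 0.05. Adam17, the enzyme that sheds TNF from the cell surface, differed by 0.09 (SE 0.08), Rhbdf1, a partner of Adam17, by 0.12 (SE 0.08) and Zfp36, which destabilises Tnf mRNA, by 0.12 (SE 0.30). Zfp36 read -0.38 on WT replicate 1 and 0.85 on WT replicate 2, again the lowest and the highest array.

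Genes of the receptor complex and its kinases varied little: 21 genes had differences of -0.10 to 0.32 and a median of 0.02, with 1 higher at an unadjusted p under 0.05. Ikbke, an inducible IkappaB kinase relative, read -1.21, -0.88 and -1.09 in WT and -0.75, -0.70 and -0.77 in FoxO1 +/- wounds, a difference of 0.32 (SE 0.10, limma adjusted p 0.669). Traf2, the adaptor that Traf1 joins, differed by 0.21 (SE 0.09) on its brighter probe and by 0.05 with the mean of its 2 probes. The core kinase genes Ikbkb, Chuk and Ikbkg differed by -0.08, 0.05 and 0.02, each less than its SE of 0.09, 0.07 and 0.08. The death branch had 10 genes with a median of 0.03, among them Xiap at 0.16 (SE 0.07, limma adjusted p 0.794) and Ripk3, a kinase of necroptosis, at -0.26 (SE 0.15), which was -0.10 without WT replicate 2.

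Among 21 other Rel subunits and inhibitors, 2 were higher at an unadjusted p under 0.05 and the median was 0.06. Tnip1, which encodes a partner of A20, read 3.51, 3.45 and 3.43 in WT and 3.86, 3.68 and 3.76 in FoxO1 +/- wounds. The groups did not overlap, WT replicate 2 sat with the other WT arrays, and the difference was 0.31 (SE 0.08, limma adjusted p 0.544, unadjusted 0.00676), the smallest p of the 132 genes. Nfkbie, the inhibitor IkappaB-epsilon, read 1.68, 2.24 and 1.89 in WT and 2.60, 2.28 and 2.21 in FoxO1 +/- wounds, a difference of 0.43 (SE 0.17, limma adjusted p 0.791). Rela, the p65 subunit, differed by 0.13 (SE 0.08). By contrast Nfkbiz and Nfkbid, nuclear IkappaB genes, differed by -0.06 (SE 0.37) and 0.07 (SE 0.37), with WT replicate 1 lowest and WT replicate 2 highest for both.

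Of 45 other NF-kappaB target genes 36 had a higher mean, with a median of 0.14, and 3 were higher at an unadjusted p under 0.05. Sod2, the mitochondrial superoxide dismutase, read 5.38, 5.54 and 5.43 in WT and 5.69, 5.70 and 5.74 in FoxO1 +/- wounds (difference 0.26, SE 0.07, limma adjusted p 0.630). Sele, the E-selectin of activated endothelium, was dim at -4.11 to -3.46 in WT and -3.48 to -2.87 in FoxO1 +/- wounds (difference 0.75, SE 0.23, limma adjusted p 0.669), and it differed by 0.37 within slide row 1. Spread within a genotype differed from gene to gene in this list, and the genes that follow were picked after their values were seen. Among WT wounds Il1b read 5.46, 7.21 and 6.49, Ptgs2 2.58, 4.37 and 3.37 and Cxcl2 2.83, 4.96 and 3.89 on WT replicates 1 to 3. Their FoxO1 +/- arrays lay between the WT extremes, at 5.92 to 6.55, 3.12 to 3.70 and 3.59 to 4.28. The chemokine genes Cxcl10, Ccl7 and Ccl2 had the larger SD in FoxO1 +/- wounds, at 0.93, 0.70 and 0.66 against 0.15, 0.19 and 0.29 in WT (n = 3).

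Among the 132 pathway genes, the 5 whose levels were most like Tnf over the 6 arrays were Cxcl5, Tnfsf11, Tnfsf12, Csf3 and Ikbke, with Pearson r of 0.987, 0.967, 0.948, 0.948 and 0.900 and Spearman rho of 0.943, 0.886, 0.771, 0.829 and 0.486. These r values only rank genes: they were picked as the highest, share the same arrays and carry the same clusters of Tnf levels, so they show no relation. Cxcl5, a neutrophil-attracting chemokine gene, read 4.85, 5.68 and 4.96 in WT and 5.51, 5.65 and 5.84 in FoxO1 +/- wounds, low on the same arrays as Tnf. Csf3, the granulocyte growth factor gene, read -1.87, -0.64 and -1.90 in WT and -1.04, -0.24 and -0.62 in FoxO1 +/- wounds. Tnfsf11 was dim, at -4.15 to -2.93 in WT and -3.47 to -3.09 in FoxO1 +/- wounds.

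**Figure D5:**
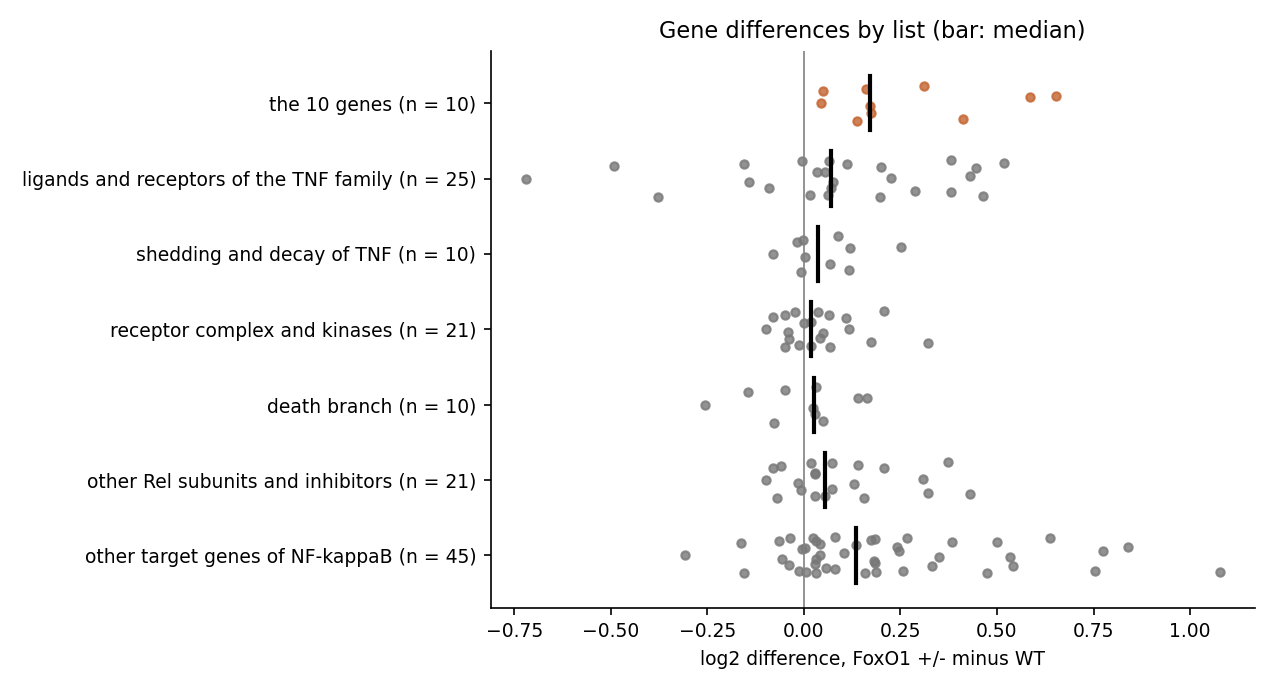
Each point is the log2 difference of 1 gene, FoxO1 +/- minus WT, grouped by list, with a bar at the median of the list. The median is 0.17 for the 10 genes, 0.14 for the other target genes and 0.02 for the receptor complex and kinases.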

How the data were processed

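Spot intensity values on a linear scale were deposited for 6 1-colour Agilent arrays. The version of Feature Extraction was 10.7.1.1 per the file headers (array design on mm9) and 9.1 per the submitters' processing notes. The authors' processed signal is background-subtracted and detrended within an array, per the names in the file headers, and was not scaled between arrays. It was converted here to log2, spots flagged as outliers were left out, spots of a probe were averaged, and the array's 75th percentile was subtracted. Symbols came from RefSeq accessions without versions, matched to a table of build GRCm38.p6: 26582 of 55681 probes matched. A probe was kept if well above background, on most of its spots, on every array of a genotype (37898 probes), and the kept probe of highest mean stood for each of 16408 genes.

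FoxO1 +/- minus WT was tested with limma 3.58.1 in R 4.3.3 (two-sided, Benjamini-Hochberg over 16408 genes) and checked on simulated data. The number of arrays limits the precision. The 10 genes and all lists were chosen with earlier results of these data known. The rule for named genes took all 10, from each pathway list the 2 genes of smallest p, and the 5 pathway genes most like Tnf; Lta, Ltb, Adam17, Zfp36, Traf2, Rela, the core kinases, Nfkbiz, Nfkbid, Il1b, Ptgs2, Cxcl2, Cxcl10, Ccl7 and Ccl2 were added for their role or after their values were seen. The planned correlations of Tnf with the other genes are not given because its levels fell into clusters. Settings tried in addition are reported at the end.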

Additional observations from a re-analysis of the deposited data

How the results depend on the processing

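Across 16 other settings (background correction, normalization, scaling, filters, probe choice, the authors' value table, single arrays left out, replicate block and slide row) 0 of the 10 genes and 0 of the pathway genes passed an adjusted p of 0.05. Of the differences of the 10 genes under these settings, 156 kept their sign and 4 did not. Part of this tally was fixed in advance. The filter settings could not change these differences, because every probe of these genes passed each filter. The replicate block could not either, because it is balanced between the genotypes. Both slide row settings gave the same differences as each other. The tally is therefore not a count of separate checks. Tnfrsf1a turned to -0.012 with quantile normalization and to -0.0018 in both settings that use the slide row. Nfkb1 turned to -0.037 without WT replicate 3, and over the single arrays left out ran up to 0.13. The median of the 10 genes was 0.12 to 0.33 with any single array removed, and the pathway median from 0.04 to 0.12. Tnf had a limma adjusted p of 0.0667 without WT replicate 2 and up to 1.00 under the other settings. In the slide row settings (block, or row 1 alone), FoxO1 +/- replicate 1 alone is set against the WT arrays: Tnfaip3 then differed by 0.69, Tnf by 0.52 and the median of the 10 genes was 0.31. The replicate block left 0 calls among the 10 genes and a median of 0.17, and took the count over all genes from 1 to 0. Over all genes the count was 28 without WT replicate 2, 7 with slide row as a block, 5 within row 1 or scaled to the median, 3 with no filter, 2 with quantile normalization and 0 or 1 under the other settings. Same-numbered arrays did not deviate together (correlations of -0.07, -0.14 and -0.30). None of the 3 WT arrays correlated best with the FoxO1 +/- array of its own number. These are deviations from means of 3 arrays, so they cannot show whether same-numbered arrays shared a batch or litter, which was not tested. The normexp correction used the median spot signal, chosen after the columns of the files were seen, and gave a median of 0.16.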
